A study of Homo sapiens with 8 samples.

Results

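MT-TS2 and MT-TH are 2 of the 22 tRNA genes, and of the 37 genes, of human mitochondrial DNA (mtDNA). They were taken by name and position and by no threshold on their values, but with earlier results of these data known. MT-TS2, the gene of the mitochondrial tRNA for serine that reads AGY codons, covers positions 12208 to 12266 of mtDNA on the plus strand (59 nt). MT-TH, the gene of the mitochondrial tRNA for histidine, covers positions 12139 to 12207 on the same strand (69 nt) and ends where MT-TS2 begins, with 0 nt between them. Positions follow the mtDNA of the hg19 files, which is 1 nt ahead of the GRCh37 reference here. The study mapped RNA bound by tagged cytosine-5 RNA methyltransferases by miCLIP in HEK293, a long-established cell line from human embryonic kidney. A mutated enzyme stays bound to its target cytosine in this assay, and reverse transcription stops next to it. Cells had received a myc-tagged NSun3 construct (3 libraries) or a myc-tagged NSun6 construct (3 libraries) and were collected 24 hours later. In 2 further samples, bisulfite sequencing of poly(A) RNA measured cytosines that escaped conversion, the readout of 5-methylcytosine (m5C). No library without an enzyme was analysed here, so NSun6 served as the comparator for NSun3. The labels do not say whether replicates were separate cultures, so p-values measure the spread between these libraries, which may be technical.

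Both mitochondrial strands are transcribed as long precursors in which tRNAs punctuate the messenger RNAs, and each tRNA is cut out at its ends. The run from MT-ND4 through MT-TH, MT-TS2 and MT-TL2 to MT-ND5 is part of such a precursor. The serine tRNA of MT-TS2 is unusual among metazoan tRNAs because it has no D arm. It is also known to carry m5C in the variable region and the neighbouring T stem, a modification laid down by another enzyme of the family, NSUN2. NSun3 is known for the wobble cytosine of mitochondrial tRNA for methionine (MT-TM), and NSun6 for cytoplasmic tRNAs. In the study, patient fibroblasts without functional NSun3 showed no loss of m5C in the tRNAs of MT-TS2 and MT-TH. The m5C that it found in MT-TS2 lay apart from its miCLIP sites there. In another binding assay of the study, which crosslinked NSun3 to RNA by ultraviolet light, MT-TM alone of the mitochondrial transcripts was significantly enriched.

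The sequences that follow carry the results, all from the GENCODE transcripts of GRCh37, 5′ to 3′. The first is the start of MT-TS2 (positions 12208 to 12231), with capitals at bases 1 to 3 and 12 to 14, where nearly all of its reads lay. The second is the cytosine run of MT-TS2 (positions 12233 to 12247), with capitals at bases 31 to 35, of which bases 33, 34 and 35 are positions 48, 49 and 50 in the common tRNA numbering. The third is the whole of MT-TH, with capitals at bases 28, 32 and 33, where most of its reads lay.

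MT-TS2 bases 1 to 24: GAGaaagctcaCAAgaactgctaa
MT-TS2 bases 26 to 40: tcatgCCCCCatgtc
MT-TH: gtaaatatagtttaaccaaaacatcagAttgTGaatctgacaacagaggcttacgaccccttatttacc

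The cloverleaf used to place reads in MT-TS2 had an acceptor stem with 7 of 7 Watson-Crick pairs, a T stem with 5 of 5 and an anticodon stem with 3 of 5. Bases 8 to 12 stood in place of the D arm, and the anticodon lay at bases 20 to 22. In MT-TH the acceptor, D and anticodon stems had 7 of 7, 4 of 4 and 5 of 5 such pairs, the T stem had 4 of 5, and the anticodon lay at bases 31 to 33.

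The libraries differed in depth, in where their reads lay and in their reads at the exons of NSUN3. The NSun3 libraries held 47352 to 138921 reads and the NSun6 libraries 305392 to 467586, of which 24.4% to 37.6% and 8.05% to 9.56% lay on mtDNA. Genes held 32.5% to 46.9% of the NSun3 reads and 86.4% to 88.0% of the NSun6 reads. Of the positions in nuclear exons annotated on a single strand, 63.0% to 82.0% lay on that strand with NSun3 and 97.0% to 97.4% with NSun6. Levels are given as RPM, read counts scaled to the total of their library, in which a single read stood for 7.20 to 21.1 RPM with NSun3 and 2.14 to 3.27 RPM with NSun6. The exons of NSUN6 held 323 to 428 reads in each NSun6 library and 0 in each NSun3 library. The exons of NSUN3 counted 32 and 19 reads for NSun3 replicates 1 and 2 but 0 in the library labelled NSun3 replicate 3, where 3 reads would be 63.4 RPM, and 8 in NSun6 replicate 3. In the library labelled NSun3 replicate 3, MT-TM took 18.1% of the mtDNA reads. This stood beside 19.1% and 25.9% in NSun3 replicates 1 and 2 and 0.131% to 0.155% in the NSun6 libraries. The main values are also given without the library labelled NSun3 replicate 3. For the bisulfite sample, markers set as present in HEK293 were covered by over 5 reads at 446 cytosines in KRT18, 606 in PAX2, 1033 in NEFM and 1057 in VIM. PTPRC and HBB had 0 such cytosines and ALB had 17, none above 10 reads.

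MT-TS2 held far more reads than MT-TH in each of the 6 libraries, and it was higher with NSun3. It had 2285, 1207 and 612 reads in NSun3 replicates 1, 2 and 3, and 950, 1031 and 704 reads in NSun6 replicates 1, 2 and 3. Scaled to depth this was 17379 ± 4985 RPM (SD, n = 3) with NSun3 and 2481 ± 394 RPM (SD, n = 3) with NSun6. The ranges did not overlap, with 12924 RPM in the lowest NSun3 library and 2933 RPM in the highest NSun6 library (ratio of means 7.0, or 7.90 without the library labelled NSun3 replicate 3, two-sided p = 0.1 by an exact permutation test, which cannot go lower with 3 against 3).

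Across the 1734 genes that passed the count filter, the log2 fold change of MT-TS2 was 4.12 ± 1.18 (SE) in favour of NSun3, with a Benjamini-Hochberg adjusted p of 0.0138 in edgeR's quasi-likelihood test. Of the tested genes 4.50% were called higher in NSun3 and 85.1% lower, but among the 27 tested mtDNA genes 70.4% were called higher and 0 lower. This split depended on the scaling, since a fit of the mtDNA genes alone called 14 higher and 7 lower of 30 tested. The median log2 fold change of the 27 was 3.77, and the median log2 fold change of all tested genes was -7.33. The median depended on the scaling, at -7.47 with library totals alone and -7.69 with RLE size factors. MT-TS2 was called higher under each of 13 alternatives, with log2 fold changes from 0.96, among mtDNA genes alone, to 4.87. The other scalings gave smaller values than the main one, at 2.01 with RLE size factors and with DESeq2 and 2.81 with library totals alone, and it was 2.39 without the count filter and 1.16 with each position counted once. Without the library labelled NSun3 replicate 3 the value was 4.15 ± 0.66 (SE), at an adjusted p of 0.00201. Without NSun3 replicate 1 it was 2.99 ± 0.47 (adjusted p = 0.000713).

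Relative to the other mitochondrial genes the difference was smaller. MT-TS2 took 4.37%, 6.62% and 5.30% of the mtDNA reads in NSun3 replicates 1, 2 and 3, and 3.07%, 2.74% and 2.57% in NSun6 replicates 1, 2 and 3. The NSun3 libraries lay above the NSun6 libraries (two-sided exact permutation p = 0.1, adjusted p = 0.168 over 37 genes). Such a separation was found for 35.1% of the mtDNA genes (13 of 37), and 9 had all NSun3 libraries below. Among the 22 tRNA genes MT-TS2 was the 2nd by mean NSun3 share, after MT-TM, and the 4th by mean NSun6 share, after MT-TF. The NSun3 rank did not hold in each library. In NSun3 replicate 1 MT-TG (5.25%) and MT-TL1 (4.82%) also lay above MT-TS2, and in replicate 3 MT-TL1 did (5.56%). Widening the limits of the gene by 2 nt brought the log2 ratio of mean shares from 0.96 down to 0.16. The reads this took in lay mainly at the first 2 bases of MT-TL2, with 68, 0 and 0 reads in the NSun3 libraries and 609, 908 and 534 in the NSun6 libraries, beside 2, 0 and 0 and 6, 8 and 1 at the last 2 bases of MT-TH. The log2 ratio was 1.04 with each read moved 1 nt toward the 5′ end, 1.24 as a share of tRNA reads and 0.36 with each position counted once. Without the library labelled NSun3 replicate 3 the log2 ratio was 0.98.

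MT-TH held few reads with either enzyme. It had 45, 9 and 31 reads in the NSun3 libraries and 69, 66 and 60 reads in the NSun6 libraries. This gave 383 ± 248 RPM with NSun3 and 184 ± 37.6 RPM with NSun6 (SD, n = 3 each), and the ranges overlapped, since NSun3 replicate 2 lay at 170 RPM between the NSun6 values of 141 and 213 RPM (two-sided exact permutation p = 0.3). The share of mtDNA reads leaned the other way, at 0.135% ± 0.117 with NSun3 and 0.206% ± 0.0264 with NSun6 (SD, n = 3 each, two-sided exact permutation p = 0.4, adjusted p = 0.569). The log2 ratio of mean shares was -0.61. It was -0.37, -0.21 and -1.60 without NSun3 replicates 1, 2 and 3 in turn, and without replicate 3 the ratio of mean RPM was 1.34.

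The gene test called MT-TH higher with NSun3 (log2 fold change 2.12 ± 0.68 SE, edgeR adjusted p = 0.0216), but the call depended on the processing. With library totals alone it held (1.03, adjusted p = 0.0380). With RLE size factors the log2 fold change was 0.13 (adjusted p = 0.740), without the count filter it was 0.53 (adjusted p = 0.396), and among the mtDNA genes alone it was -0.69 (adjusted p = 0.410). No direction is given for MT-TH for this reason. Without the library labelled NSun3 replicate 3, the log2 fold change with the main scaling was 1.91 ± 0.60 (SE, edgeR adjusted p = 0.0292), and without NSun3 replicate 1 it was 1.03 ± 0.37 (adjusted p = 0.0315). Leaving out 1 NSun6 library gave 2.81 to 3.08.

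The reads of MT-TS2 lay at 2 places, and the first was prominent with both enzymes. Base 2, in the acceptor stem, had 624, 303 and 226 reads in the NSun3 libraries (replicates 1 to 3 in order) and 716, 792 and 497 reads in NSun6 replicates 1, 2 and 3. It was the leading base of MT-TS2 in every NSun6 library. Base 13, the first of the anticodon stem, held 1175, 748 and 296 reads in the NSun3 libraries against 5, 11 and 0 reads in the NSun6 libraries. Its neighbour base 14 held 230, 101 and 29 reads with NSun3 against 5, 6 and 10 with NSun6. At bases 2, 13 and 14 alike every NSun3 library lay above every NSun6 library in RPM. The ratios of means were 2.71, 740 and 68.4. The mtDNA as a whole also took more reads with NSun3, at 24.4% to 37.6% of a library against 8.05% to 9.56% with NSun6. How many other mtDNA positions separate in this way was not counted.

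Counted as shares of the gene's own reads, the profile of MT-TS2 did not overlap between the enzymes. Bases 1 to 3 took 35.1%, 28.3% and 46.9% of its reads in the NSun3 libraries and 94.5%, 95.2% and 93.0% in the NSun6 libraries. Bases 12 to 14 took 63.7%, 71.0% and 53.1% with NSun3 and 2.21%, 2.04% and 2.27% with NSun6. Both separations were complete (two-sided exact permutation p = 0.1 each, the lowest that can be reached). The 2 groups of bases were picked from the peaks of these same libraries, so these p-values only restate the peaks. Together the 2 groups hold nearly all reads of the gene, so the 2 separations are not separate results. At bases 1 to 3 the separation was shared by other tRNA genes. Of the 9 with at least 20 reads in every library, 5 had all NSun3 libraries below all NSun6 libraries, MT-TS2 among them, with means of 18.2% and 47.4% in MT-TG, 1.11% and 26.2% in MT-TL1 and 7.93% and 35.3% in MT-TL2. The remaining gene, MT-TF, lay near the floor, at 0% with NSun3 and 0.0595% to 0.338% with NSun6. By arm, the 5′ strand of the anticodon stem held 61.6% ± 8.62 of the NSun3 reads and 1.37% ± 0.301 of the NSun6 reads, and the 5′ strand of the acceptor stem 36.99% ± 9.28 and 97.2% ± 0.154 (SD, n = 3 each). Over the 11 arms of both genes with any read, the adjusted p of these exact permutation tests was 0.55. Moving each read 1 nt toward the 5′ end left most NSun3 reads in the connector before the stem, and the difference in the anticodon stem fell from 60.3 to 7.02 percentage points. With each position counted once it was 13.8 percentage points, and the difference in the acceptor stem went from -60.2 to -8.40. Without the library labelled NSun3 replicate 3 the differences were 64.5 percentage points in the anticodon stem and -65.1 in the acceptor stem.

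**Figure D1:**
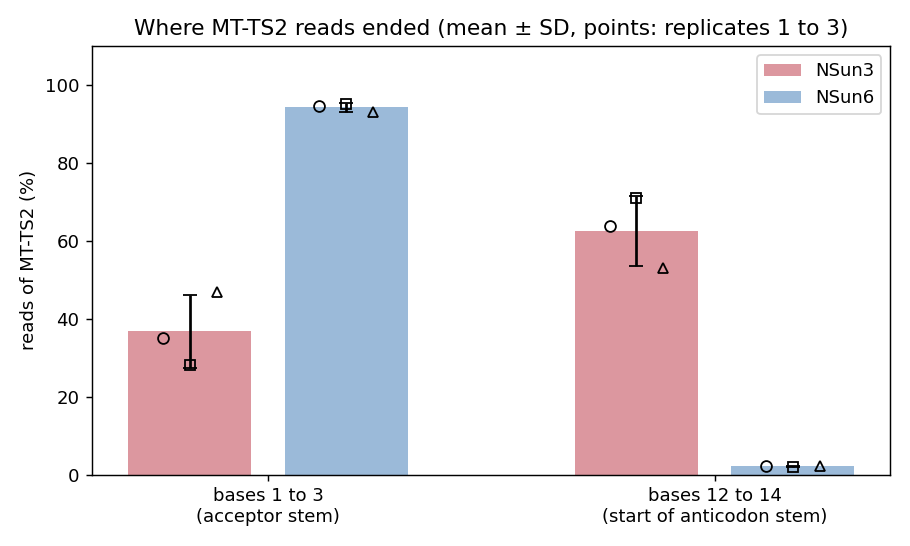
Share of the MT-TS2 reads of each library (%, vertical axis) at bases 1 to 3 and at bases 12 to 14, with bars for the mean and error bars for the SD of 3 libraries per enzyme, and points for single libraries. The NSun6 libraries all lie at 93.0% or higher for bases 1 to 3, whereas the NSun3 libraries hold 53.1% to 71.0% of their reads at bases 12 to 14.

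The order of the enzymes at the first place depended on the scale. In RPM, bases 1 to 3 held 6091 ± 326 RPM with NSun3 and 2338 ± 376 RPM with NSun6, a ratio of 2.60, while bases 12 to 14 held 11167 ± 4688 and 54.0 ± 10.1 RPM, a ratio of 207 (SD, n = 3 each). Without the library labelled NSun3 replicate 3 these ratios were 2.61 and 246. As a share of mtDNA reads, bases 1 to 3 held 1.96% ± 0.482 with NSun3 and 2.63% ± 0.257 with NSun6, with overlapping ranges (two-sided exact permutation p = 0.2), whereas bases 12 to 14 held 3.43% ± 1.10 and 0.0607% ± 0.00635, with NSun3 above in all libraries (SD, n = 3 each, two-sided exact permutation p = 0.1). No direction is given for bases 1 to 3 for this reason. Bases 12 to 14 were grouped because the NSun3 reads peaked there, so their ratio and p-value restate that peak. Base 1 was uneven among replicates, with 121, 0 and 0 reads in the NSun3 libraries.

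**Figure D2:**
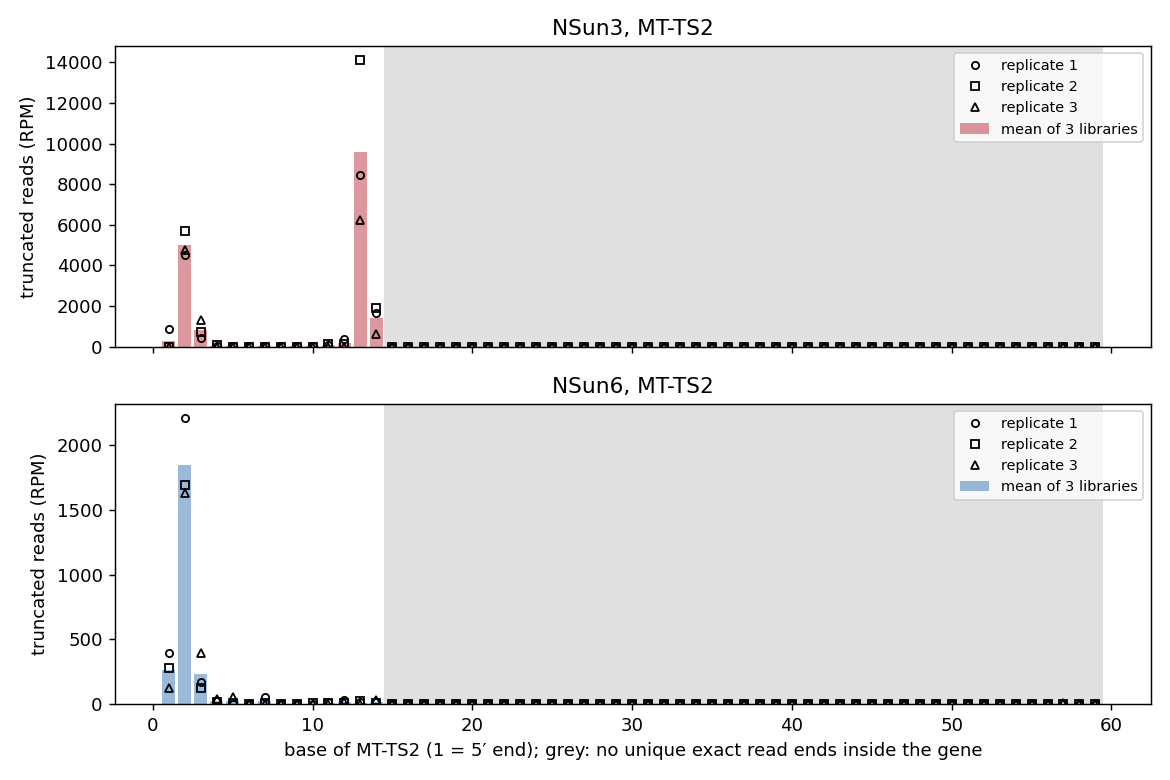
Truncated reads (RPM, vertical axes of different height) at each base of MT-TS2 (horizontal axis, from its 5′ end) with NSun3 (upper panel) and NSun6 (lower panel), as the mean of 3 libraries (bars) and single libraries (points). Both enzymes have a peak at base 2, NSun3 has a second one of 9605 RPM at base 13, and the grey bases 15 to 59 are those where no unique exact read ends inside the gene.

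From base 15 on, MT-TS2 could barely be read by this assay. The study kept only reads with a single best place in the genome, and the sequence of MT-TS2 from base 15 to base 59 occurs a second time, without a difference, in a nuclear segment of chromosome 8 similar to mtDNA. The exact match runs on for 58 nt in all, past the end of the gene. A read starting at base 15 therefore needed at least 59 nt to be unique, with 45 nt left in the gene, and at each of the 45 bases from there on the shortest unique exact read was longer than the rest of the gene. At bases 1 to 10 reads of 18 nt, the shortest that were kept, sufficed, and at base 13 and base 14 the shortest unique reads had 28 and 27 nt. These lengths come from the GRCh37 reference, take the listed position as the first base of the read, and allow for no mismatch.

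Of the 59 bases of MT-TS2, 43 held 0 reads in all 6 libraries, and bases 1 to 14 held 100% of the NSun3 reads and 99.8% of the NSun6 reads. The remaining 5 reads lay at base 57 (3 in NSun6 replicate 3) and base 58 (2 in NSun6 replicate 2). The known m5C positions at bases 33, 34 and 35 were among the 43, as was the anticodon. Counting error alone would allow each base with 0 reads up to 0.131% to 0.490% of the gene's reads (3 reads in each library). Because reads from these bases that end inside the gene have a second place in the genome, 0 reads there measures neither presence nor absence of a truncation. The place with the most NSun3 reads, bases 13 and 14, was the last before this stretch.

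**Figure D3:**
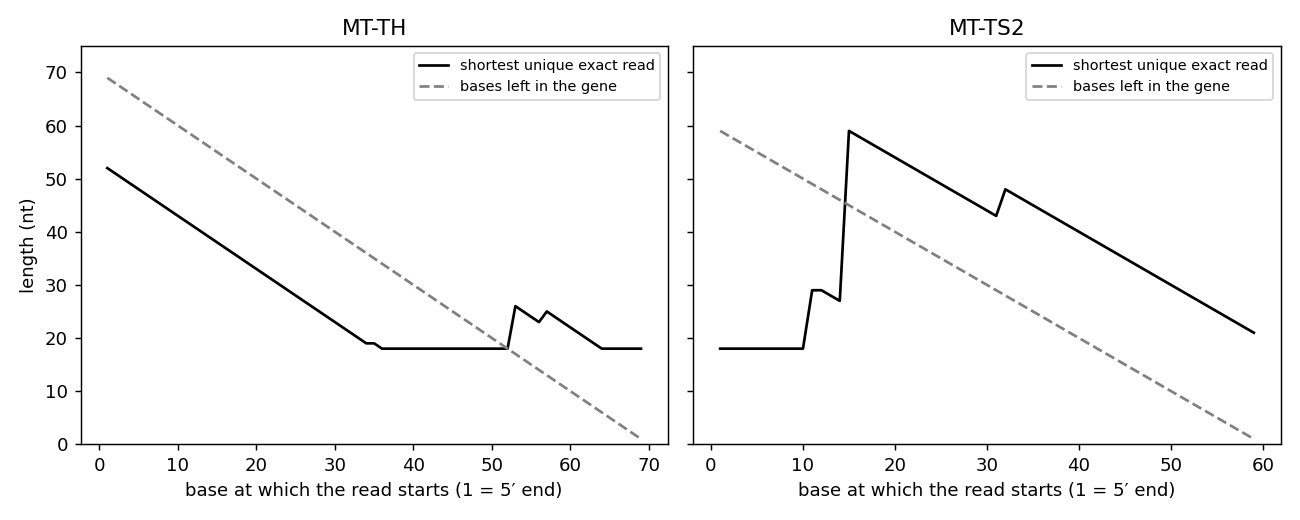
Shortest exact read that occurs once in GRCh37 (solid line, nt, at least 18) and bases left to the end of the gene (dashed line, nt) for a read starting at each base of MT-TH (left) and MT-TS2 (right). The solid line crosses above the dashed line at base 15 of MT-TS2, and in MT-TH it lies at 31 to 52 nt over bases 1 to 22.

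The limit on MT-TH was milder, as unique exact reads could end inside the gene from each of its bases 1 to 52. Its bases 1 to 51 occur without a difference in a nuclear segment of chromosome 5 (GRCh37, 134262298 to 134262348, minus strand), so a read from base 1 had to reach 52 nt, and reads from bases 1 to 22 had to reach 31 to 52 nt. In each library 0 reads lay at bases 1 to 22. Reads from bases 36 to 52 were unique at 18 nt.

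Within MT-TH the anticodon arm held most reads with both enzymes. Base 33, the third base of the anticodon, had 28, 3 and 16 reads with NSun3 and 35, 34 and 38 reads with NSun6. Base 32 held 9, 0 and 0 reads with NSun3 and 22, 13 and 15 with NSun6. Base 28, the last of the 5′ anticodon stem, held 0, 6 and 15 reads with NSun3 and 0 in each NSun6 library. The anticodon loop took 57.2% ± 27.1 of the NSun3 reads and 83.3% ± 7.98 of the NSun6 reads (SD, n = 3 each, two-sided exact permutation p = 0.3), and the ranges overlapped. No cytosine lies within the anticodon loop of MT-TH. With each position counted once, the difference turned from -26.1 to 5.50 percentage points, and with each read moved 1 nt toward the 5′ end it was -0.40. It was -40.9, -14.2 and -23.3 percentage points without NSun3 replicates 1, 2 and 3 in turn.

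**Figure D4:**
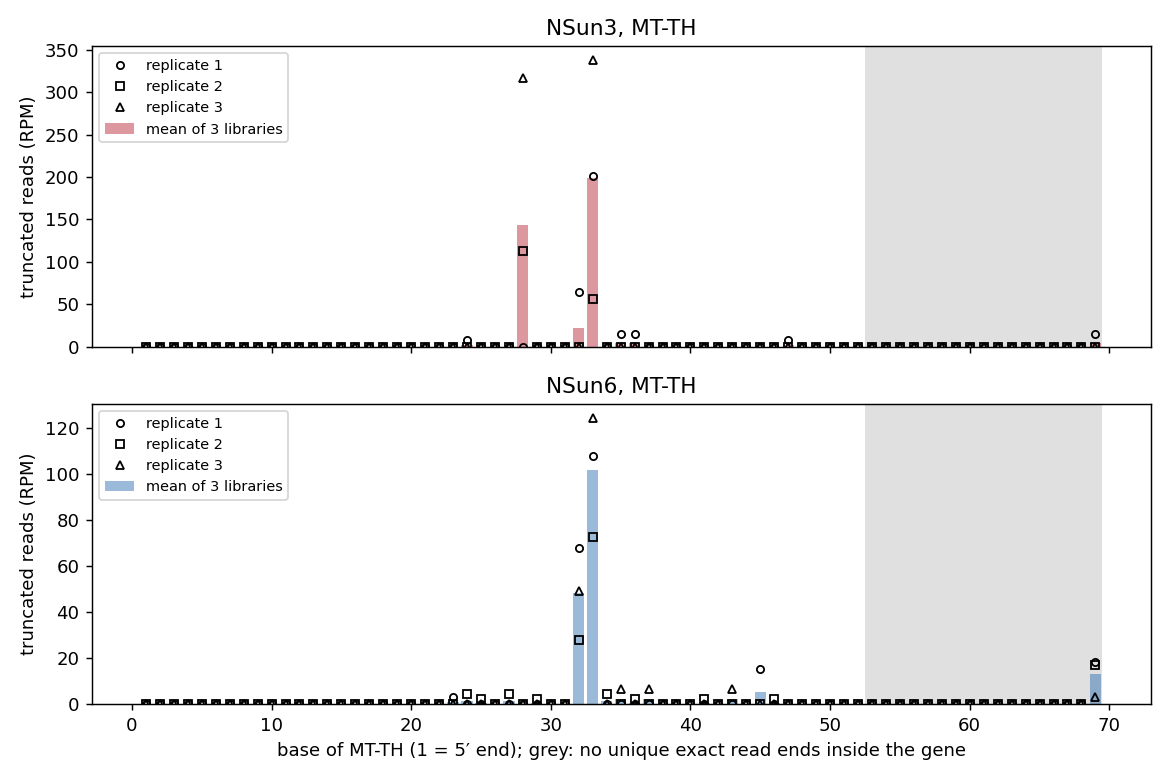
Truncated reads (RPM, vertical axes of different height) at each base of MT-TH (horizontal axis, from its 5′ end) with NSun3 (upper panel) and NSun6 (lower panel), as the mean of 3 libraries (bars) and single libraries (points), with bases where no unique exact read ends inside the gene in grey. Base 33 leads with both enzymes, at 199 and 102 RPM, and the reads at base 28 come from NSun3 replicates 2 and 3.

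The rule that ties reads to a target cytosine moved a large share of the MT-TS2 reads to MT-TH. Each read was moved to the closest cytosine of its strand if one lay within 2 nt, with ties going to the 5′ side. The first cytosine of MT-TS2 is base 8, so reads at its bases 1 and 2 went to the last base of MT-TH, the cytosine at position 12207, as the junction shows (last 15 bases of MT-TH in lower case, first 15 of MT-TS2 in capitals, positions 12193 to 12222).

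Junction: gaccccttatttaccGAGAAAGCTCACAAG

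By this rule 31.5% ± 5.98 of the NSun3 reads of MT-TS2 and 84.7% ± 7.53 of its NSun6 reads (SD, n = 3 each) were counted for MT-TH. There they made up 98.3% to 100% of all reads given to an MT-TH cytosine in each library. Base 69 of MT-TH thus carried 747, 303 and 226 reads in the NSun3 libraries and 849, 929 and 536 in the NSun6 libraries, whereas 2, 0 and 0 and 6, 8 and 1 reads lay at that base itself. The reads at bases 12 to 14 of MT-TS2 went to its cytosine at base 12 (position 12219), which is the last base of the connector and carried 1455, 857 and 325 reads with NSun3 and 21, 21 and 16 with NSun6.

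Of the 18 cytosines of MT-TS2, 5 had a read by this rule and 1 passed the count filter, and of the 15 of MT-TH the numbers were 6 and 1. Both tested cytosines were called higher in NSun3, against 16.5% of the 1775 cytosines tested. With 1 tested cytosine per gene, this is no result about the genes. Base 12 of MT-TS2 passed the filter mainly through its NSun3 reads (6863 to 16163 RPM, against 44.9 to 64.8 RPM with NSun6). Base 69 of MT-TH held almost only reads that lay in MT-TS2. Base 12 of MT-TS2 stood at 7.93 ± 0.87 (SE) on the log2 scale, with an adjusted p of 1.1e-05 from edgeR. It was called under each of 11 alternatives, at 6.14 to 7.84, with 7.22 when the library labelled NSun3 replicate 3 was left out. Its reads were those of the NSun3 peak, and mainly NSun3 reads brought it into the test. The p-value and the calls therefore restate that peak and are no separate result. Without the count filter the log2 fold change of base 12 was 6.43. Base 69 of MT-TH stood at 1.58 ± 0.58 (SE), with an adjusted p of 0.0196 from edgeR. It was called under 1 of 11 alternatives and turned to -0.26 with RLE size factors and to -0.08 without NSun3 replicate 1.

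The study's threshold for a high-confidence site was a level above 50 RPM that at least 2 of 3 replicates reach. By it, MT-TS2 had 2 such cytosines with NSun3 (bases 10 and 12) and 1 with NSun6 (base 12). MT-TH had 1 with each enzyme, base 69. Over all 92350 cytosines with a read in any library, 0.766% passed with NSun3 and 2.04% with NSun6, while the 18 and 15 cytosines of the 2 genes include those without a read. For NSun6 the level at base 12 was 64.8, 44.9 and 52.4 RPM in replicates 1, 2 and 3, on both sides of the threshold, against 10474, 16163 and 6863 RPM for NSun3. At base 10 NSun3 had 93.6, 113 and 0 RPM, and NSun6 had at most 18.5 RPM. In reads this was 13, 6 and 0 with NSun3 and 6, 8 and 0 with NSun6. A single read stood for 7.20 to 21.1 RPM with NSun3 and 2.14 to 3.27 RPM with NSun6, so fewer reads sufficed with NSun3. Base 10 is therefore not read as a difference between the enzymes. Base 12 thus passed with both enzymes, at means of 11167 and 54.0 RPM.

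Of the neighbours, the protein genes on both sides were called and MT-TL2 was not. MT-ND4, upstream, was higher with NSun3 by 4.32 ± 1.22 (SE) on the log2 scale at an adjusted p of 0.0132 from edgeR, and MT-ND5, downstream, by 3.04 ± 1.06 (adjusted p = 0.0287). In share of mtDNA reads these orders did not both hold: MT-ND5 took 2.81% ± 0.132 with NSun3 and 3.48% ± 0.0318 with NSun6, with NSun3 below in all libraries, and MT-ND4 took 2.61% ± 0.951 and 1.49% ± 0.185, with overlapping ranges (SD, n = 3 each, two-sided exact permutation p = 0.1 and p = 0.2). MT-TL2, the tRNA gene next to MT-TS2, had -0.37 ± 0.96 (adjusted p = 0.728) and took 0.464% ± 0.263 of the NSun3 and 6.17% ± 0.365 of the NSun6 mtDNA reads (SD, n = 3 each). Of the 22 tRNA genes 13 were tested, 7 were called higher in NSun3 and 0 lower, at a median log2 fold change of 2.12. Among all 27 tested mtDNA genes 70.4% were called higher and 0 lower, at a median of 3.77. Over all tested genes the shares were 4.50% higher and 85.1% lower. These calls of mtDNA genes depended on the scaling, since a fit of the mtDNA genes alone called 14 higher and 7 lower of 30. By share of mtDNA reads, 4 of the 22 had all NSun3 libraries above all NSun6 libraries and 6 had them below, among them MT-TL1 (4.30% ± 1.58 and 29.8% ± 1.27) and MT-TF (1.18% ± 0.755 and 4.90% ± 0.465, SD, n = 3 each).

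Of the other mitochondrial tRNAs that the study lists with m5C, MT-TM was called higher in NSun3 (log2 fold change 10.49 ± 2.85 SE, edgeR adjusted p = 0.0114, beside 4.12 ± 1.18 for MT-TS2). MT-TL1 (0.56, adjusted p = 0.685) and MT-TF (1.77, adjusted p = 0.204) were not called, and MT-TE was not tested. With NSun6 the first 3 bases took 94.2% ± 1.08 of the reads in MT-TS2 and 96.2% ± 6.66 of the 52 to 92 reads in MT-TC (SD, n = 3 each), which had 0 reads in 2 of the NSun3 libraries. For MT-TM the share was 0% with both enzymes. Over the 6 libraries, the mean-centred log2(RPM + 1) of MT-TS2 was most like that of MT-RNR2 (Euclidean distance 0.736), MT-RNR1 (0.870) and MT-TT (0.990), among 23 genes with a read in every library. For MT-TH the nearest were MT-TY (1.89), MT-ND5 (2.04) and MT-CYB (2.32).

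The bisulfite reads could not single out the known m5C positions of MT-TS2. All 18 of its cytosines were listed, each with 7 to 9 reads on the strand of the gene, from a single table with no column for either sample and so without a replicate error. At bases 33, 34 and 35, 7 of 8 reads were not converted (87.5%, exact binomial interval 47.3% to 99.7%, counting error only). The other 13 cytosines outside the run of bases 31 to 35 lay at 57.1% to 100%, with a median of 87.5%. Bases 8, 10, 12, 21, 25 and 27 each stood at 100% (8 of 8 reads, exact interval 63.1% to 100%). All 18 reached the level of at least 20% at a coverage of over 5 reads that was used for a methylated call, so the call did not separate the known positions from the rest. Over all of mtDNA, 62.9% of the plus-strand cytosines with over 5 reads reached it.

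MT-TH had less bisulfite coverage. The study reports m5C in the variable region of this tRNA in fibroblasts. The 15 cytosines of MT-TH had 1 to 8 reads, 10 of them a single converted read. Its variable-region cytosines, bases 41 and 44, were among the 10 (0 of 1 reads not converted each, exact interval 0% to 97.5%). The 2 with over 5 reads, bases 68 and 69, stood at 75% (6 of 8 reads, exact interval 34.9% to 96.8%). For comparison, MT-RNR1 had a median of 4685 reads per listed plus-strand cytosine, with 0.0968% of calls not converted, and MT-ND4 a median of 172 reads, with 69.7% not converted.

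**Figure D5:**
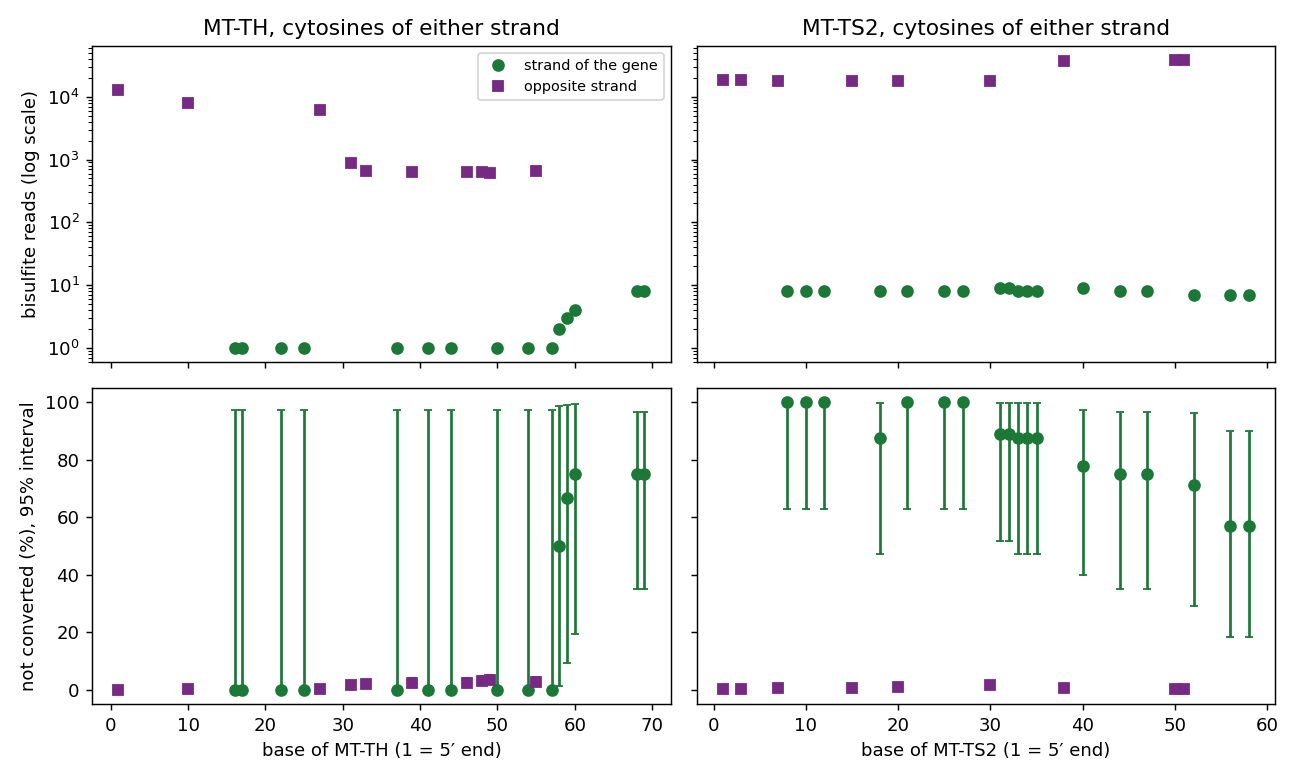
Bisulfite reads per cytosine (upper panels, log scale) and percent not converted with exact 95% binomial intervals (lower panels) along MT-TH (left) and MT-TS2 (right), for cytosines on the strand of the genes and on the opposite strand. On the strand of the genes no cytosine has over 9 reads, and the cytosine run of MT-TS2 lies within the range of its other cytosines.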

How the data were processed

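Reads of 6 miCLIP libraries were analysed per base of MT-TS2 and MT-TH. Per the study's methods, identical barcoded reads were collapsed, reads under 18 nt dropped and the rest aligned to hg19 with Bowtie (1 mismatch, a single best place). For each library the authors deposited the counts of reads that ended at each position, as whole numbers and with no strand given. Chromosomes occur in 2 passes in each file, taken as plus, then minus strand. For bisulfite sequencing (Bismark) the deposited table holds counts of methylated and unmethylated reads and their percent per cytosine, with no column for either sample. By the study's methods, duplicates were kept in one version of the levels and removed in another. Which one the table holds, and whether the samples were pooled, is not given in the sources used here, so intervals cover counting error only.

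The shift of mtDNA numbering against GRCh37 came from the bases at bisulfite positions. Counts per gene and per cytosine were fitted over all features with edgeR 4.0.16 (R 4.3.3, quasi-likelihood test, TMM, filterByExpr, library totals as file totals), with DESeq2 1.42.0 as an alternative. Adjusted p under 0.05 was called. SEs were derived from the F statistic. Shares were compared by exact two-sided permutation tests over libraries (SciPy 1.17.1). Replicates differed beyond sampling noise (chi-square per degree of freedom 4.41 to 35.0). In simulated counts with 8-fold changes in 200 features, as many up as down, 65.3% of the changed genes that passed the filter were called. The real data were not balanced, with 85.1% of tested genes called lower and 4.50% higher, so this figure does not carry over to the main fit. Unique read lengths came from BLAST 2.17.0 against GRCh37, word size 16.

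The members and gene lists were chosen with earlier results of these data known. Named were both genes, the 22 tRNA genes as a list, the neighbours MT-ND4, MT-TL2 and MT-ND5, the tRNAs that the study lists with m5C, the 3 mtDNA genes most alike over libraries, per gene and enzyme the leading bases, and each cytosine over 50 RPM in 2 of 3 replicates or called methylated. Markers were VIM, KRT18, NEFM and PAX2 as present and PTPRC, HBB and ALB as absent. Alternatives were other scalings, no filter, other denominators and limits, and leaving out each library. The RPM means without NSun3 replicate 3 were added after seeing the data.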

Additional observations from a re-analysis of the deposited data

Results flagged for a closer look

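Bisulfite reads on the strand opposite to the genes, which enter no comparison above, were far more numerous than on the strand of the genes. At the 9 such cytosines of MT-TS2 the coverage was 17974 to 38296 reads, against 7 to 9 on its own strand, and 0.361% to 1.54% of the reads were not converted. At the 10 of MT-TH it was 620 to 12922 reads, with 0.108% to 3.39% not converted. The same order of strands held in MT-TL2, with medians of 22528 and 3 reads, and in MT-ND4, with medians of 5025 and 172 reads, but not in MT-RNR1, with medians of 12 and 4685 reads. The reason was not tested.

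In miCLIP, 9 reads of NSun6 replicate 2 lay on the strand opposite to MT-TS2, above the limit of 3 reads that a count of 0 allows. The other libraries held 0 to 2 such reads, and 0 lay opposite to MT-TH in all 6.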

How the results depend on the processing

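MT-TS2 per gene and base 12 of MT-TS2 kept their direction and their call under each alternative that gave a value. Base 12 gave none when only reads at the cytosine itself were counted, as it did not pass the filter. The calls of base 12 restate the NSun3 peak, whose reads the cytosine rule gave to it. MT-TH per gene kept its call under 7 of 12 alternatives and lost it with RLE size factors (0.13), DESeq2 (0.13), no filter (0.53) and the replicate block (1.71), and its log2 fold change turned to -0.69 among mtDNA genes alone. Base 69 of MT-TH fell to 0.035 without the filter and stayed at 1.57 with the replicate block, neither called, turned to -0.26 with RLE size factors and with DESeq2, and ranged from -0.080 to 0.88 when each library was left out, without a call. The cause was not tested.

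Replicate numbers were not used as a pairing in the main fit. The deviations of same-numbered libraries had r of 0.033, 0.076 and 0.0086. NSun3 replicates 1 and 2 correlated best with their own number, and replicate 3 did not. Correlations this weak cannot show whether same-numbered libraries shared a batch. With the replicate block 1163 genes and 1441 cytosines were called, and MT-TS2 stood at 3.66 (edgeR adjusted p = 0.0457).

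The count of genes called was 1554, and 4055 without the filter, 99 with each position counted once, 21 among mtDNA genes alone (14 higher in NSun3, 7 lower) and 1184 to 2527 when a library was left out, highest without NSun3 replicate 1. For cytosines it was 1576, and 4169 without the filter and 1313 to 2807 when a library was left out, highest without NSun3 replicate 3. These alternatives changed how many features were tested.

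The log2 ratio of shares of MT-TH turned from -0.61 to 1.06 with all reads as the denominator, and the difference in its anticodon loop to 5.50 percentage points with each position counted once. High-confidence sites of MT-TS2 fell from 2 to 1 with NSun3 at 100 RPM or in 3 of 3 replicates, and from 1 to 0 with NSun6. Leaving out a library gave 1 to 2 and 0 to 1. At over 20 bisulfite reads 0 cytosines of either gene were called methylated, and at 1 read or more 5 of MT-TH were, against 2. Base 12 and base 69 did not pass the filter when only reads at the cytosine itself were counted, MT-TH did not with each position counted once, and the cytosine rule left the arms of the sensitivity test without a cytosine, so these gave no value. Depth limits MT-TH most, where NSun3 replicate 2 held 9 reads.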
